A study of Mus musculus with 71 samples.

Results

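The 41 type I interferon-stimulated genes (ISGs) listed here were followed, gene by gene, in the terminal whole blood of mice from a model of systemic sclerosis, a disease of autoimmunity, inflammation and fibrosis. The members were found by gene symbol, from a list chosen with earlier results of these data known. All 41 are among the 55416 genes with read counts, and 40 are among the 10508 genes with values after the variance stabilizing transformation (vst), a log2-like scale of normalised counts. Ifi213 has counts only. RNAseq was performed after poly A selection and globin depletion in 71 mice, and vst values were given for 70 of them, since HOCl mouse 8 has counts alone. All mice were female Balb/c AnNRj mice, 6 weeks old at the start. The 11 control mice (CTRL) received PBS. The 12 HOCl mice received 300 µL of hypochlorous acid intradermally on 5 days per week for 6 weeks, a chemical injury that brings on the disease features. A further 12 mice per group were given HOCl and an agent labelled D11, E07, D06 or BPR21. D11 and E07 are monoclonal antibodies (mAbs) against galectin-3, a lectin that binds β-galactosides, and were given subcutaneously at 20 mg/kg, from the day before the first HOCl injection and then every 5 days. For D06 and BPR21 only the names are given in the sources used here, without dose or nature. Experimental and control mice were bred in separate cages, so cage and HOCl cannot be told apart. Whether the groups given HOCl shared cages is not stated, so cage may also differ between them. No mice given an unrelated antibody are described in the sources used here.

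Type I interferons (IFN-α and IFN-β) bind the receptor pair IFNAR1 and IFNAR2, which signals through the kinases JAK1 and TYK2 to a transcription factor complex that holds STAT2 and IRF9 and binds the interferon-stimulated response element (ISRE) in front of ISGs. The products of ISGs destroy or sequester viral RNA, block entry and budding, attach the ubiquitin-like protein ISG15 to other proteins, and feed back on the sensors and the receptor itself. In blood, most of them are read as signs of interferon acting on leukocytes, and Isg15 and the enzymes that attach it are also made in maturing red cells.

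The core of the ISRE, taken as GAAA, any 2 bases and GAAA again, was searched on both strands in the 250 bases before and the 50 bases after the start of each gene's main transcript (GENCODE vM39, GRCm39). It was found in 21 of the 41 ISGs (51.2%) and in 3.84% of the 21770 windows of protein-coding genes. The 150 bases before the start are shown for Isg15, Rsad2 and Oas3, which hold this motif and are among the 6 ISGs whose level varied most clearly between the groups, so that the element can be seen where these genes have it. Isg20 and Ube2l6, also among the 6, held 0 matches in this window. Capitals mark the matches, and a match on the other strand reads TTTC, any 2 bases and TTTC.
Isg15, chr4:156285304-156285453, minus strand: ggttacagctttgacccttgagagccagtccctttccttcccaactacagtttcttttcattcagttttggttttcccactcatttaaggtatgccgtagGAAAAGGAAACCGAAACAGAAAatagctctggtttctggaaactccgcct
Rsad2, chr12:26506452-26506601, minus strand: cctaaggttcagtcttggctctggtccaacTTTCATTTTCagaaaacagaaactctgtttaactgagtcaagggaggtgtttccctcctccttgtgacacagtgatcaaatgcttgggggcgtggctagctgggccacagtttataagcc
Oas3, chr5:120915730-120915879, minus strand: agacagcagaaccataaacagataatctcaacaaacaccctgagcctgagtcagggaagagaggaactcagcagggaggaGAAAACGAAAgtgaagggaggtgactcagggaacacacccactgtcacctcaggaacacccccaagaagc
The Isg15 window holds 3 matches that overlap each other, starting at 50, 44 and 38 bases before the start. The other genes hold 1 match each, starting at 120 (Rsad2) and 70 (Oas3) bases before it. A match is a description of the letters, and binding was not measured.

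Each library held 11932855 to 15948972 gene counts (median 13719277), which limits the precision for ISGs with few counts. Marker genes of blood cells were found in the vst table for all 10 cell lists looked at, including 27 of 27 erythroid, 12 of 12 neutrophil, 13 of 13 monocyte, 7 of 8 platelet, 10 of 10 T cell and 9 of 9 B cell genes. The 27 erythroid genes, which include the globins left after depletion and the red cell membrane and haem synthesis genes, accounted for 8.03% ± 2.58 (SD, n = 11) of the counts of control mice (range 3.72% to 11.5%) and 12.98% ± 2.72 (n = 12) of those of HOCl mice (8.90% to 19.4%). The share was 7.59% ± 1.86 in E07 (5.38% to 11.3%), 10.1% ± 3.56 in D11 (5.91% to 15.8%), 11.4% ± 3.18 in D06 (8.32% to 20.2%) and 10.4% ± 2.45 in BPR21 mice (6.94% to 14.0%; n = 12 each). One library was singled out after the values were seen. Control mouse 12 had the highest control value for 10 of the 40 ISGs and the lowest for 13, so results that use the control group are also given without it. Such extremes were not limited to it. Control mouse 4 had the highest value for more ISGs than mouse 12, and control mouse 8 also often had the lowest. The shares of all genes called are given only for fits that leave out no mouse. In bulk blood, fewer cells of a type and less RNA per cell cannot be told apart.

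Per length, the ISGs spanned a wide range of levels. The ubiquitin-conjugating enzyme gene Ube2l6, whose product transfers ISG15, had a median of 5487 RPKM over the 71 mice and took 0.596% to 2.92% of all counts (median 1.54%). The exonuclease gene Isg20 followed with a median of 1672 RPKM, then Rsad2 with 467, Isg15 with 444 and Ifi27l2a with 132. Between these and Ifi213 lay the other 35 ISGs, with medians of 1.40 to 59.6 RPKM. Ifi213, a member of the cluster of interferon-inducible PYHIN genes on chromosome 1, had 0 to 65 counts per mouse. Its median was 10 counts in control, 9 in HOCl, 11 in D11, 13 in E07, 12 in D06 and 10.5 in BPR21 mice, and the groups overlapped (edgeR quasi-likelihood F test over 6 groups, FDR = 0.887).

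**Figure D1:**
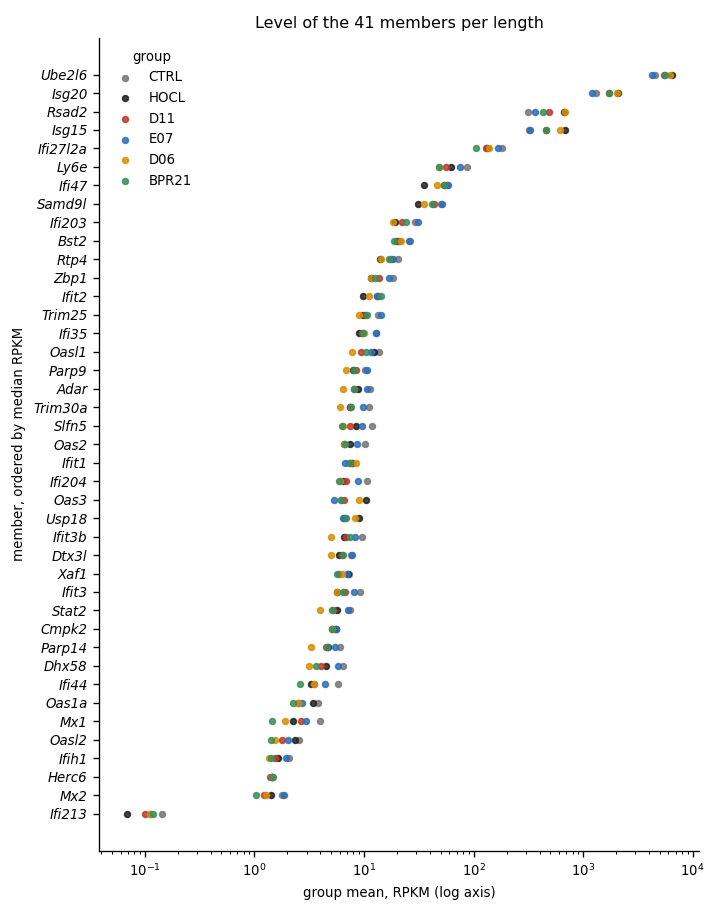
Level of each of the 41 ISGs per exon length (RPKM from the counts, log axis), with 1 point for the mean of each group of 11 or 12 mice. Ube2l6, Isg20, Rsad2 and Isg15 stand above 300 RPKM in every group, and Ifi213 lies near 0.1.

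Between the 6 groups, 15 of the 40 ISGs differed (limma F test on vst values, FDR of at most 0.05), or 37.5%, against 18.3% of all 10508 genes. They were 4 of 11 antiviral effectors that bind RNA, 3 of 7 dynamin-like and membrane effectors, 3 of 5 genes of the ISG15 system, 2 of 11 sensors and signalling genes, and 3 of 6 genes of interferon-inducible families. In pairwise comparisons a gene was called when its FDR did not exceed 0.05 and its fold-change reached 1.3 in either direction. Isg15, Rsad2, Oas3, Isg20, Ifi47 and Ube2l6 had the smallest p of the F test. In each of the 10 comparisons made, the values of the mice overlapped between the groups for all 40 ISGs. The same count over all genes is not given here.

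**Figure D2:**
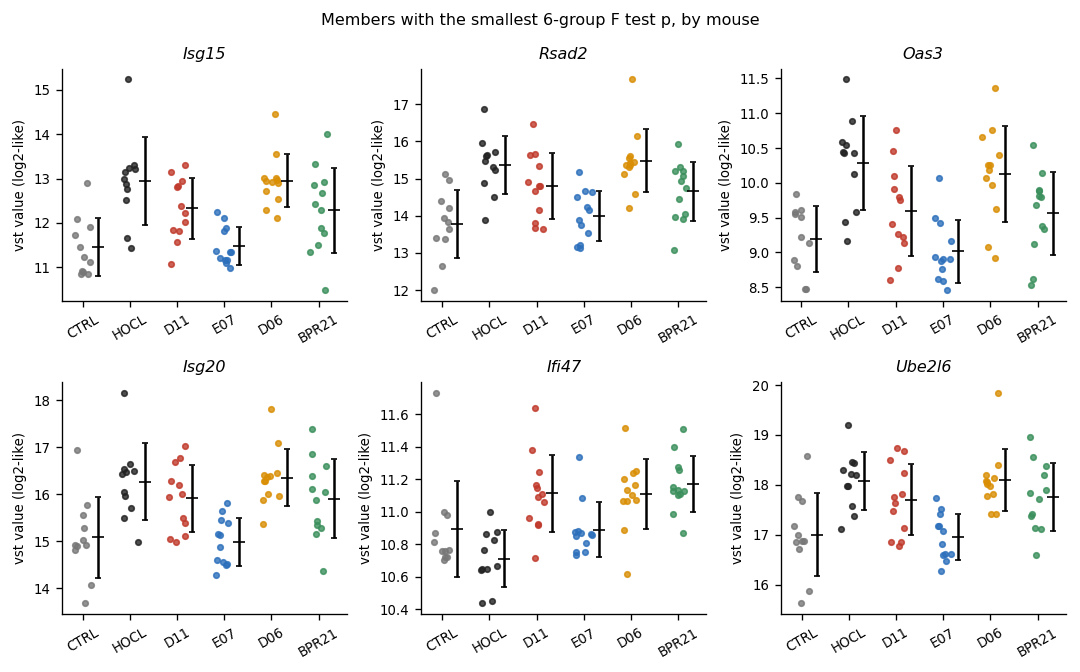
The vst values (log2-like) of the 6 ISGs with the smallest F test p, 1 point per mouse, in the 6 groups, with the mean and SD beside the points (n = 11 in CTRL and HOCL, n = 12 in the others). Isg15, Rsad2, Oas3, Isg20 and Ube2l6 sit higher in HOCl and D06 than in control and E07 mice, whereas Ifi47 is lowest in HOCl mice.

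The ISG15 system carried some of the largest differences. The vst value of Isg15 was 10.85 to 12.89 with a median of 11.24 in control, 11.43 to 15.23 with a median of 12.99 in HOCl and 10.98 to 12.25 with a median of 11.36 in E07 mice. It was 11.08 to 13.30 with a median of 12.30 in D11, 12.11 to 14.44 with a median of 12.94 in D06 and 10.49 to 14.00 with a median of 12.35 in BPR21 mice. Every HOCl mouse was above the control median, and 6 of 11 were above every control mouse. Isg15, which encodes the ubiquitin-like modifier, was 2.81-fold higher in HOCl than in control mice (log2 fold-change 1.49 ± 0.31 (SE), FDR = 0.00606, limma). It fell with E07 (log2 fold-change -1.46 ± 0.28 (SE), FDR = 0.000608, compared with HOCl mice), and all 12 E07 mice were below the HOCl median. HOCl mouse 7 had the highest value of all, 15.23.

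The vst value of Ube2l6 was 15.63 to 18.59 with a median of 16.87 in control, 17.12 to 19.21 with a median of 18.21 in HOCl and 16.27 to 17.74 with a median of 16.94 in E07 mice. It was 16.78 to 18.73 with a median of 17.69 in D11, 17.41 to 19.85 with a median of 18.04 in D06 and 16.59 to 18.95 with a median of 17.78 in BPR21 mice. All 11 HOCl mice were above the control median, but only 1 was above every control mouse. Ube2l6 was 2.11-fold higher in HOCl than in control mice (log2 fold-change 1.08 ± 0.27 (SE), FDR = 0.0161) and 2.18-fold lower in E07 than in HOCl mice (log2 fold-change -1.12 ± 0.19 (SE), FDR = 0.000319). Usp18, the protease that removes ISG15 and restrains IFNAR2 signalling, was 8.44 ± 0.46 (SD) in control, 9.17 ± 0.72 in HOCl, 8.73 ± 0.43 in D11, 8.43 ± 0.28 in E07, 9.12 ± 0.46 in D06 and 8.80 ± 0.50 in BPR21 mice. Its value was lower in E07 than in HOCl mice (log2 fold-change -0.74 ± 0.20 (SE), FDR = 0.0133), and the difference between HOCl and control mice missed the FDR (0.73, FDR = 0.0587). Herc6, the main ISG15 ligase of the mouse, had log2 fold-changes of 0.32 (FDR = 0.168) and -0.35 (FDR = 0.0827) in the same comparisons. Trim25, a ubiquitin ligase that acts on the sensor RIG-I and also accepts ISG15, had log2 fold-changes of 0.01 and 0.06, and neither was called.

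Among the effectors that bind RNA, Oas3 led. It belongs to the 2′-5′ oligoadenylate synthetases, which activate the ribonuclease RNase L. The vst value of Oas3 was 8.47 to 9.83 with a median of 9.23 in control, 9.17 to 11.49 with a median of 10.43 in HOCl and 8.46 to 10.06 with a median of 8.91 in E07 mice. It was 8.60 to 10.75 with a median of 9.58 in D11, 8.91 to 11.36 with a median of 10.22 in D06 and 8.53 to 10.55 with a median of 9.74 in BPR21 mice. Of the HOCl mice 8 of 11 were above every control mouse, and 9 of the 12 E07 mice were below every HOCl mouse. Oas3 was 2.14-fold higher in HOCl than in control mice (log2 fold-change 1.09 ± 0.22 (SE), FDR = 0.00511) and 2.41-fold lower in E07 than in HOCl mice (log2 fold-change -1.27 ± 0.21 (SE), FDR = 0.000244). Oas1a of the same family was 8.72 ± 0.50 (SD) in control, 9.05 ± 0.36 in HOCl, 8.65 ± 0.34 in D11, 8.44 ± 0.37 in E07, 8.80 ± 0.27 in D06 and 8.56 ± 0.34 in BPR21 mice. It was lower in E07 than in HOCl mice (log2 fold-change -0.61 ± 0.14 (SE), FDR = 0.00389), while HOCl and control mice did not pass the test (0.33, FDR = 0.306). Oasl2 was 8.11 ± 0.47 (SD) in control, 8.40 ± 0.38 in HOCl, 8.07 ± 0.40 in D11, 7.96 ± 0.32 in E07, 8.07 ± 0.45 in D06 and 7.94 ± 0.41 in BPR21 mice. Oasl2 also fell with E07 compared with HOCl mice (log2 fold-change -0.43 ± 0.14 (SE), FDR = 0.0303), a call lost in 8 of 23 repeats that left out 1 mouse, whereas Oasl1 (-0.38, FDR = 0.0486) passed the FDR but not the fold-change minimum.

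The IFIT proteins recognise the ends of foreign RNA. Ifit1 was 9.45 ± 0.56 (SD) in control, 10.01 ± 0.53 in HOCl, 9.87 ± 0.50 in D11, 9.34 ± 0.38 in E07, 10.16 ± 0.39 in D06 and 9.84 ± 0.58 in BPR21 mice. It was lower in E07 than in HOCl mice (log2 fold-change -0.68 ± 0.17 (SE), FDR = 0.00813), and HOCl and control mice did not pass the test (0.57, FDR = 0.120). Ifit2 followed another order, with 9.92 ± 0.28 (SD) in control, 9.98 ± 0.31 in HOCl, 10.28 ± 0.33 in D11, 9.91 ± 0.22 in E07, 10.18 ± 0.38 in D06 and 10.37 ± 0.49 in BPR21 mice (F test FDR = 0.0222). Its highest mean was in BPR21 and its lowest in E07 mice, and no pairwise comparison of Ifit2 was called. Ifit3 and Ifit3b, near-identical neighbours on chromosome 19 whose reads may have been split between them, had F test FDRs of 0.986 and 0.895. Oas2, the RNA-editing enzyme gene Adar and the Z-RNA sensor gene Zbp1 did not pass the F test either.

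Of the membrane and dynamin-like effectors, Rsad2 showed the largest difference of the 40 ISGs between HOCl and control mice. It encodes viperin, which makes a chain-terminating nucleotide. The vst value of Rsad2 was 12.01 to 15.12 with a median of 13.84 in control, 13.90 to 16.87 with a median of 15.47 in HOCl and 13.14 to 15.18 with a median of 14.02 in E07 mice. It was 13.65 to 16.48 with a median of 14.81 in D11, 14.20 to 17.67 with a median of 15.39 in D06 and 13.09 to 15.92 with a median of 14.84 in BPR21 mice. Every HOCl mouse was above the control median and 8 of 11 were above every control mouse. Rsad2 was 3.02-fold higher in HOCl than in control mice (log2 fold-change 1.59 ± 0.32 (SE), FDR = 0.00497) and 2.58-fold lower in E07 than in HOCl mice (log2 fold-change -1.37 ± 0.27 (SE), FDR = 0.000845). Cmpk2, its neighbour on chromosome 12 with a start 12752 bases away, encodes a kinase that supplies the nucleotide for viperin. Cmpk2 was 8.53 ± 0.28 (SD) in control, 8.98 ± 0.40 in HOCl, 8.72 ± 0.38 in D11, 8.56 ± 0.24 in E07, 8.91 ± 0.31 in D06 and 8.79 ± 0.44 in BPR21 mice. It was called higher in HOCl than in control mice (log2 fold-change 0.45 ± 0.14 (SE), FDR = 0.0476), a call lost in 16 of 22 repeats that left out 1 mouse, and lower in E07 than in HOCl mice (log2 fold-change -0.42 ± 0.13 (SE), FDR = 0.0245).

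The dynamin-like GTPase gene Mx1 and the membrane protein gene Ly6e followed another pattern. Mx1 was 7.96 ± 0.32 (SD) in control, 7.84 ± 0.24 in HOCl, 7.86 ± 0.30 in D11, 7.76 ± 0.27 in E07, 7.71 ± 0.28 in D06 and 7.42 ± 0.28 in BPR21 mice, and all 12 BPR21 mice were below the control median. Mx1 was lower in BPR21 than in control mice (log2 fold-change -0.53 ± 0.12 (SE), FDR = 0.0388), a call lost in 14 of 23 repeats that left out 1 mouse. Balb/c mice carry a defective Mx1 gene, so its transcript does not stand for the protein. Ly6e was 12.07 ± 0.32 (SD) in control, 12.04 ± 0.26 in HOCl, 11.83 ± 0.22 in D11, 11.91 ± 0.18 in E07, 11.82 ± 0.22 in D06 and 11.64 ± 0.22 in BPR21 mice (F test FDR = 0.00610), with no pairwise call. Mx2, the tetherin gene Bst2 and Samd9l did not pass the F test (FDR = 0.239, 0.189 and 0.537).

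Among the interferon-inducible families, Isg20 and Ifi47 varied in different directions. The vst value of Isg20 was 13.68 to 16.94 with a median of 14.92 in control, 14.98 to 18.17 with a median of 16.44 in HOCl and 14.27 to 15.82 with a median of 15.00 in E07 mice. It was 14.98 to 17.04 with a median of 15.98 in D11, 15.36 to 17.81 with a median of 16.33 in D06 and 14.37 to 17.40 with a median of 15.96 in BPR21 mice. All HOCl mice were above the control median, although only 1 was above control mouse 12. Isg20 was 2.28-fold higher in HOCl than in control mice (log2 fold-change 1.19 ± 0.32 (SE), FDR = 0.0237), which no longer passed the FDR without control mouse 2, and 2.42-fold lower in E07 than in HOCl mice (log2 fold-change -1.28 ± 0.25 (SE), FDR = 0.000868).

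The vst value of Ifi47 was 10.70 to 11.73 with a median of 10.76 in control, 10.44 to 11.00 with a median of 10.66 in HOCl and 10.73 to 11.34 with a median of 10.86 in E07 mice. It was 10.71 to 11.63 with a median of 11.10 in D11, 10.62 to 11.51 with a median of 11.12 in D06 and 10.87 to 11.51 with a median of 11.13 in BPR21 mice. Of the HOCl mice 6 of 11 were below every control mouse, and 10 of the 12 BPR21 mice were above every HOCl mouse. Ifi47, which encodes an immunity-related GTPase, was 1.38-fold higher in BPR21 than in HOCl mice (log2 fold-change 0.46 ± 0.08 (SE), FDR = 0.00550). The differences of D11 (0.40, FDR = 0.0794) and D06 mice (0.40, FDR = 0.0729) from HOCl mice missed the FDR. Ifi44 was 8.95 ± 0.34 (SD) in control, 8.74 ± 0.32 in HOCl, 8.65 ± 0.41 in D11, 8.70 ± 0.26 in E07, 8.87 ± 0.24 in D06 and 8.39 ± 0.24 in BPR21 mice, and it was lower in BPR21 than in control mice (log2 fold-change -0.56 ± 0.12 (SE), FDR = 0.0259), a call lost in 5 of 23 repeats that left out 1 mouse. Ifi203, Ifi204 and Ifi27l2a were not called in any comparison.

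Of the sensors and signalling genes 2 of 11 were called by the F test and 0 in a pairwise comparison (limma). Dhx58, which encodes the RIG-I-like receptor LGP2, was 8.44 ± 0.20 (SD) in control, 8.46 ± 0.15 in HOCl, 8.26 ± 0.25 in D11, 8.36 ± 0.20 in E07, 8.13 ± 0.28 in D06 and 8.18 ± 0.20 in BPR21 mice (F test FDR = 0.0121). Stat2, which encodes a subunit of the complex that binds the ISRE, was 9.29 ± 0.20 (SD) in control, 9.36 ± 0.22 in HOCl, 9.19 ± 0.15 in D11, 9.27 ± 0.14 in E07, 9.04 ± 0.24 in D06 and 9.12 ± 0.27 in BPR21 mice (F test FDR = 0.0315). For both the highest mean was in HOCl and the lowest in D06 mice, and no pairwise comparison was called. The other 9 of this role, Ifih1 (the MDA5 sensor), Parp9, Parp14, Dtx3l, Trim30a, Rtp4, Xaf1, Slfn5 and Ifi35, passed neither the F test nor a pairwise comparison. Parp9 and Dtx3l overlap by 682 bases on opposite strands, and the strand setting of the counting is not given in the sources used here. In all, 23 of the 40 ISGs were called neither by the F test nor in a pairwise comparison, and their log2 fold-changes lay between -0.43 and 0.37. The share of all genes called in none of these tests is not given here.

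The question of HOCl itself was addressed by HOCl and control mice. HOCl mice had higher levels of Isg15, Rsad2, Oas3, Isg20, Ube2l6 and Cmpk2, 6 of 40 ISGs, or 15.0%, against 4.96% of all genes called and 4.79% called higher. No ISG was called lower. The median log2 fold-change was 0.08 over the 40 ISGs and -0.02 over all genes. Without control mouse 12, Ifit1 (0.67, FDR = 0.0354) and Usp18 (0.81, FDR = 0.0288) were called higher as well, and Cmpk2 was not. With the mouse number as a block, in the 10 pairs of same-numbered mice, only 1 ISG was called, Oas3. The share of all genes called in that fit is not given here. The 22 called of the 27 erythroid genes were all higher too (list median 1.20), as were 4 of 7 platelet genes (list median 0.53) and the neutrophil granule genes Ngp, Ltf and Camp, 3 of 12. Their part in the result was not tested beyond the covariate fits given further on.

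With E07, the 10 ISGs Isg15, Rsad2, Isg20, Oas3, Ube2l6, Usp18, Ifit1, Oas1a, Oasl2 and Cmpk2 were lower than in HOCl mice. They made up 25.0% of the 40, against 7.89% of all genes called and 7.01% called lower, and no ISG was called higher. The median log2 fold-change was -0.11 over the ISGs and 0.02 over all genes. Compared with control mice, 0 of 40 were called in E07 mice (limma, 2 at an unadjusted p under 0.05, and 0 with edgeR and with DESeq2), where 0.00952% of all genes were called. The log2 fold-changes of E07 against control mice were 0.03 ± 0.20 (SE) for Isg15, 0.23 ± 0.29 for Rsad2 and -0.17 ± 0.17 for Oas3. The comparisons with control and with E07 mice share the HOCl mice. E07 mice also had lower levels of 23 of the 27 erythroid genes (list median -1.25) and of the monocyte genes Csf1r and F13a1, 2 of 13, than HOCl mice. Called lower as well were 5 of 7 platelet genes (list median -0.53) and 2 of 12 neutrophil genes, and called higher were 7 of 9 B cell genes (list median 0.50) and 2 of 4 eosinophil genes. Their part in the result was not tested beyond the erythroid and monocyte covariate fits.

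With D11, 0 of 40 ISGs were called against HOCl mice with limma, where 0.0571% of all genes were called. An unadjusted p under 0.05 was reached by 9 of 40, against 14.1% of all genes. Both edgeR and DESeq2 called 1, Ifi47. The log2 fold-changes were -0.61 ± 0.31 (SE, FDR = 0.375) for Isg15, -0.69 ± 0.25 (FDR = 0.215) for Oas3 and -0.57 ± 0.31 (FDR = 0.407) for Rsad2. Against control mice 0 were called with limma, edgeR or DESeq2, with 0.0761% of all genes called by limma. Here 7 of 40 had an unadjusted p under 0.05 (limma), against 16.1% of all genes. Without control mouse 12, 5 were called higher in D11 mice, namely Isg15 (1.02), Isg20 (1.02), Rsad2 (1.16), Ube2l6 (0.86) and Ifit2 (0.42). The share of all genes called without that mouse is not given here. The mAbs were also compared directly. Isg15 (-0.85, FDR = 0.0232), Isg20 (-0.92, FDR = 0.0232), Ube2l6 (-0.75, FDR = 0.0398) and Ifit1 (-0.53, FDR = 0.0494) were lower in E07 than in D11 mice. In 24 repeats that left out 1 mouse the call was lost 20 times for Ifit1 and 14 times for Ube2l6, and 1 fit over all 6 groups called 0 of the 4. These 4 of 40 are 10.0%, against 4.57% of all genes called and 4.27% called lower, and 10 of the 27 erythroid and 3 of 7 platelet genes were called lower and 2 of 9 B cell genes higher in the same comparison.

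In D06 mice the ISGs called against control mice were 7, all higher. Against HOCl mice 0 of 40 were called with limma, with 0.133% of all genes called. An unadjusted p under 0.05 was reached by 8 of 40, against 12.7% of all genes. There edgeR called 0 and DESeq2 called 3, Ifi47, Oasl1 and Parp14. The log2 fold-change of D06 against HOCl mice was 0.01 ± 0.30 (SE) for Isg15 and 0.11 ± 0.30 for Rsad2. Against control mice, Rsad2 (1.71, FDR = 0.00156), Isg15 (1.50, FDR = 0.000954), Isg20 (1.28, FDR = 0.00298), Ube2l6 (1.10, FDR = 0.00748), Oas3 (0.94, FDR = 0.00599), Ifit1 (0.72, FDR = 0.00941) and Usp18 (0.68, FDR = 0.00980) were higher. These 7 of 40 are 17.5%, against 7.88% of all genes called and 7.27% called higher, and the same comparison called 24 of the 27 erythroid, 6 of 7 platelet, 3 of 12 neutrophil and 3 of 4 eosinophil genes, all higher. Without control mouse 12, 7 ISGs were called in D06 and 0 in E07 against control mice.

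In BPR21 mice the calls concerned other genes. Ifi47 was higher than in HOCl mice, 1 of 40 or 2.50% where 0.638% of all genes were called. An unadjusted p under 0.05 (limma) was reached there by 17 of 40, against 14.0% of all genes. The log2 fold-change was negative for 29 of 40, with a median of -0.19, against -0.001 over all genes. Of the 12 BPR21 mice 11 were below the HOCl median for Oas3 and for Rsad2, and 10 for Isg15. Ifi44 and Mx1 were lower than in control mice, 2 of 40 or 5.00% where 0.504% of all genes were called. In that comparison 13 of 40 had an unadjusted p under 0.05, against 19.9% of all genes. Without control mouse 12, 9 ISGs were called in the latter comparison, among them Isg15 (0.98), Isg20 (1.01), Rsad2 (1.01) and Ube2l6 (0.92) as higher and Ly6e (-0.50) and Slfn5 (-0.47) as lower. The share of all genes called without that mouse is not given here, so this count cannot be read as particular to the ISGs. BPR21 mice had called decreases of 4 of 13 monocyte genes against HOCl and of 5 against control mice. The mean vst value of the list was 9.61 ± 0.21 (SD, range 9.37 to 9.93) in BPR21, 10.05 ± 0.16 (9.69 to 10.26) in HOCl and 10.02 ± 0.28 (9.69 to 10.67) in control mice. It was also lower in the other treated groups, with 9.77 ± 0.20 in E07, 9.795 ± 0.16 in D06 and 9.81 ± 0.17 in D11 mice. Against control mice 2 of 7 NK genes were called lower and 1 of 7 platelet genes higher in BPR21 mice. Against HOCl mice 1 of 10 T cell genes was called higher. D06 and BPR21 were not compared with E07 or D11 here.

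**Figure D3:**
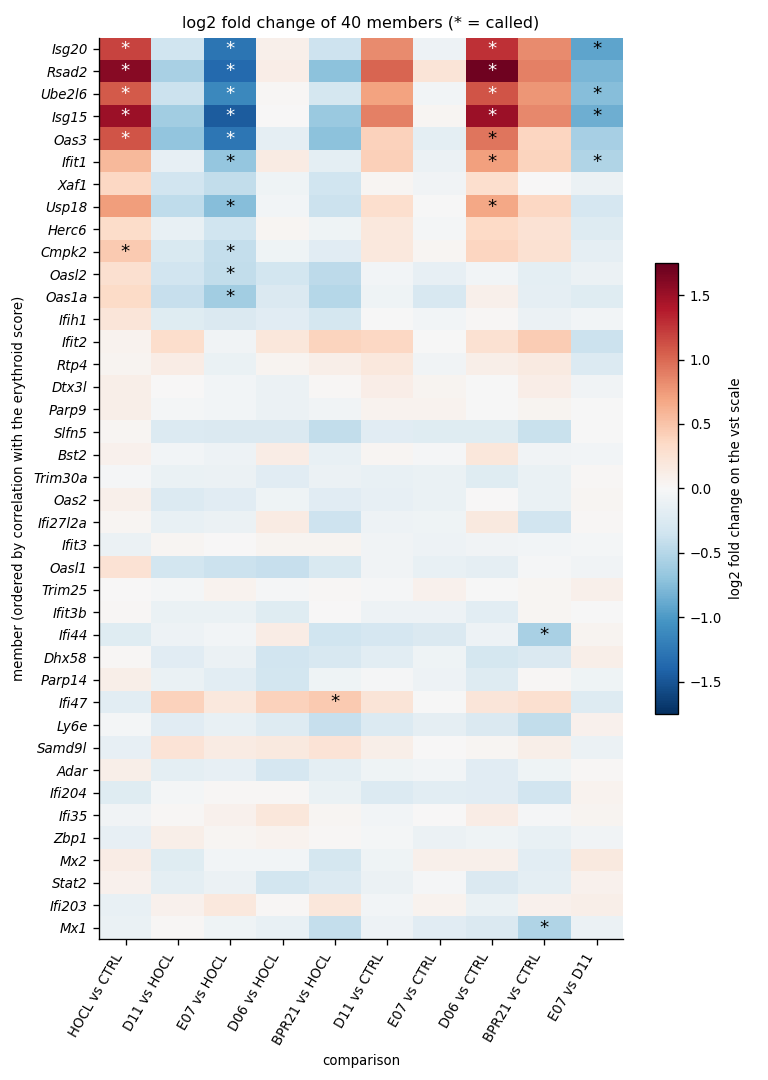
Log2 fold-change on the vst scale (colour) of the 40 ISGs (rows, ordered by correlation with the erythroid genes) in 10 comparisons (columns), with an asterisk where the gene was called. The asterisks of the comparisons of HOCl, D06 and E07 mice gather in the upper rows, and those of BPR21 mice (Ifi47, Ifi44 and Mx1) stand in the lower rows.

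Since the erythroid genes moved in the same comparisons, each ISG was set against them mouse by mouse, after the mean of the mouse's own group was subtracted, a relation examined after the group differences had been seen. Over 70 mice, the r with the erythroid score was 0.96 for Isg20, 0.95 for Rsad2, 0.94 for Ube2l6, 0.92 for Isg15 and 0.83 for Oas3. Spearman's rho was 0.95, 0.94, 0.92, 0.91 and 0.82, and r without the 2 mice farthest from the median score was 0.96, 0.95, 0.93, 0.90 and 0.80. The permutation p was 1e-05 for each r and each rho, the smallest that 100000 permutations within groups can give, and the adjusted p was 0.000211 for r and 0.000286 for rho over 400 relations of 40 ISGs with 10 cell lists. Within single groups r lay between 0.93 and 0.99 for Isg20 and between 0.49 and 0.96 for Oas3. Ifit1 (0.78), Xaf1 (0.69), Usp18 (0.69) and Herc6 (0.59) also had r above 0.5.

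The other 31 ISGs had r between -0.29 and 0.50. Over all 10508 genes 8.06% had r above 0.5, and the cut at 0.5 was set after the values were seen. Between pairs of the 9 ISGs above it the mean r was 0.73, against 0.23 between pairs of the other 31. The 9 were picked for their r with 1 shared score, so a higher r between them follows in part from that choice. The scores and the ISGs share each library's scaling. On total-count scaling r was 0.91 for Isg20, 0.91 for Rsad2, 0.85 for Ube2l6, 0.77 for Isg15 and 0.59 for Oas3, but 0.36 for Ifit1, 0.26 for Usp18, 0.07 for Xaf1 and -0.06 for Herc6. The ISRE core was present in 5 of the 9 and in 15 of the 31.

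**Figure D4:**
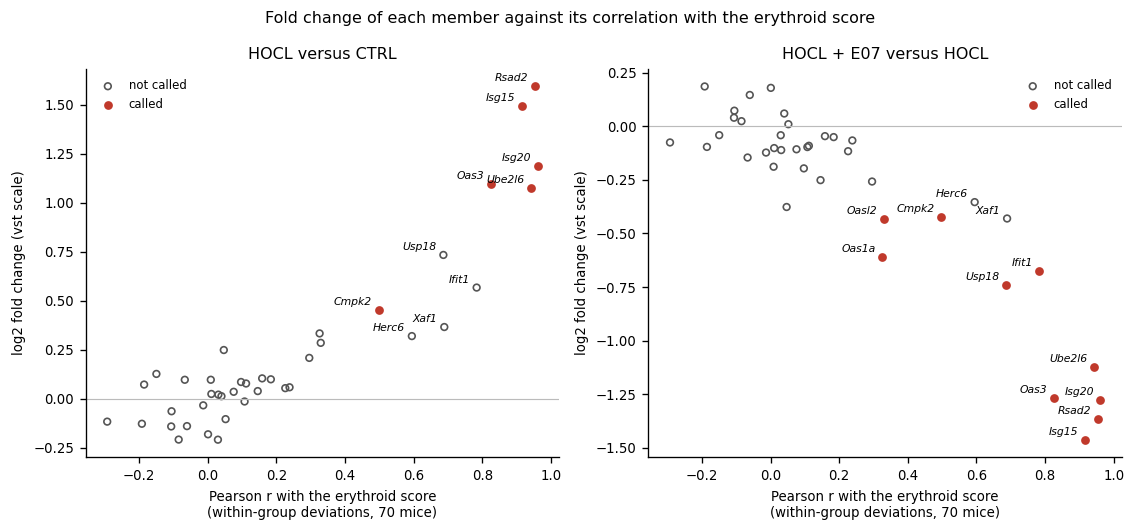
Log2 fold-change on the vst scale of each of the 40 ISGs (HOCl against control mice on the left, E07 against HOCl mice on the right) against its r with the erythroid score within groups (70 mice), with filled points for called genes. The ISGs with r above 0.8 are the 5 with the largest changes in both comparisons, which share the HOCl mice, and those with r near 0 scatter around no change.

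**Figure D5:**
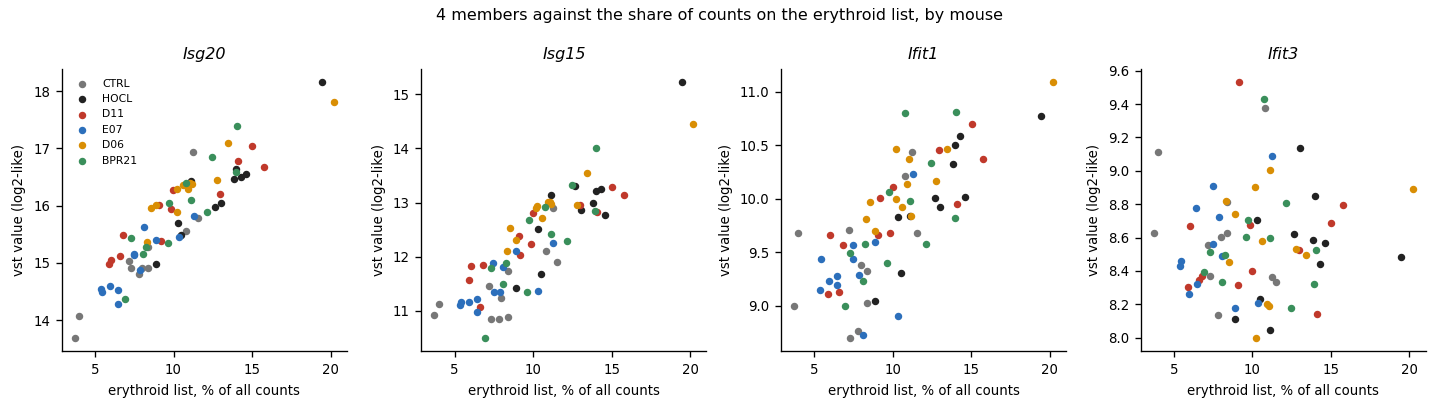
The vst values of Isg20, Isg15, Ifit1 and Ifit3 against the share of all counts on the 27 erythroid genes, 1 point per mouse (70 mice), coloured by group. Isg20 and Isg15 rise with the share in mice of every group, while Ifit3 shows no such slope. HOCl mouse 7 (19.4%) and D06 mouse 5 (20.2%) lie farthest to the right, and these 4 genes were picked for the plot after their values were seen.

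With the erythroid score as a covariate in limma, 0 of 40 ISGs were called in HOCl against control mice (2 at an unadjusted p under 0.05) and 0 in E07 against HOCl mice (0 at an unadjusted p under 0.05). For HOCl against control mice the fitted log2 difference was then 0.15 (FDR = 0.768) for Isg15, 0.16 (FDR = 0.689) for Rsad2, 0.32 (FDR = 0.517) for Oas3 and -0.27 (FDR = 0.345) for Isg20. For E07 against HOCl mice it was -0.07 (FDR = 0.936) for Isg15 and -0.17 (FDR = 0.707) for Oas3. The score itself differed between these groups, and a difference due to HOCl or E07 that acts through it cannot be told apart from one that does not. In the F test 4 ISGs were called with this covariate, namely Ifi47 (FDR = 0.00255), Mx1 (0.0264), Ifi44 (0.0359) and Ly6e (0.0367). The shares of all genes called with this covariate are not given here, so these counts cannot be read as particular to the ISGs.

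Other ISGs went with other cell lists. The r of Ifit2 with 7 platelet genes was 0.76 (rho 0.71, 0.69 without the 2 farthest mice, permutation p = 1e-05, adjusted p = 0.000211). The platelet list had a mean vst value of 12.11 ± 0.35 in D06, 12.05 ± 0.49 in BPR21, 11.99 ± 0.44 in D11 and 11.95 ± 0.32 in HOCl mice. It was 11.49 ± 0.24 in E07 and 11.46 ± 0.34 in control mice. Ly6e (0.70), Trim30a (0.64) and Oasl1 (0.61) had the highest r with the 13 monocyte genes, and Ifi47 had a negative one (-0.51). With the 12 neutrophil genes 5 ISGs had r above 0.5, namely Oasl1 (0.60), Rtp4 (0.60), Trim30a (0.60), Oas1a (0.52) and Oas2 (0.51). With the monocyte score as a covariate 0 ISGs were called in E07 against HOCl mice (9 at an unadjusted p under 0.05), 6 in HOCl against control mice and 9 in the F test. The shares of all genes called with this covariate are not given here. The part of these cell lists in the results was not tested otherwise.

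The scaling of the libraries moved the direction for much of the list. On total-count scaling (log2 of CPM + 1), the median of all genes shifted to -0.47 in HOCl against control and to 0.49 in E07 against HOCl mice, and that of the ISGs to -0.37 and 0.34. In HOCl mice Rsad2, Isg15, Oas3, Isg20 and Ube2l6 were still called higher (log2 fold-changes of 1.12, 1.05, 0.79, 0.70 and 0.59), 5 of 40 against 3.11% of 10501 genes, while 13 were called lower, against 48.9%. In E07 compared with HOCl mice 6 were called lower (the same 5 and Usp18), against 3.09% of genes, and 17 higher, against 62.5%.

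Upstream of the ISGs, 34 symbols of interferon induction and signalling were listed, which stand for 32 genes since 2 genes were listed under both an older and a current name. The vst table holds 27 of them, and 7 of the 27 were called by the F test, against 18.3% of all genes. In HOCl against control mice 2 of 27 were called, against 4.96% of all genes, both higher, namely Irf7, the factor that amplifies IFN-α transcription (1.04, FDR = 0.0196), and the receptor gene Ifnar2 (0.59, FDR = 0.0407). In E07 against HOCl mice 3 were called, against 7.89% of all genes, all lower, namely Irf7 (-1.17, FDR = 0.000567), Ifnar2 (-0.65, FDR = 0.00611) and the phosphatase gene Ptpn11 (-0.42, FDR = 0.00341). D06 mice had higher levels of Irf7 (1.12, FDR = 0.00201), Ifnar2 (0.45, FDR = 0.0426) and the adaptor gene Mavs (0.49, FDR = 0.00817) than control mice, 3 of 27 against 7.88% of all genes. Irf7 was lower with E07 than with D11 (-0.81, FDR = 0.0232). The other 6 comparisons called 0 of the 27 genes with limma, with 1 to 6 at an unadjusted p under 0.05. Irf9, Jak1 and Ifnar1 were called in no comparison. Of the interferon genes, Ifna1, Ifna2 and Ifna4 had 0 counts in all 71 mice, which allows up to 3 counts in a library, and Ifnb1 had 12 counts in 1 mouse and 0 in the others.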

How the data were processed

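Whole blood RNA of 71 mice in 6 groups was sequenced. The authors trimmed the reads with Cutadapt, aligned them to mm39 with STAR, counted them per gene with FeatureCount and deposited these counts. They also deposited vst values of DESeq2, which are on a log2-like scale. The authors kept protein-coding genes above a low level in that table. The versions of Cutadapt, STAR and FeatureCount and the annotation are not given in the sources used here. Groups were taken from the sample titles, since the genotype label reads HOCL for control mice too. Members and gene lists were chosen with earlier results of these data known. Each pair of groups was fitted alone with limma 3.58.1 (R 4.3.3) on the vst values, with Benjamini-Hochberg FDR over 10508 genes, and 10 comparisons and 1 F test were made. Ifi213 was tested with edgeR 4.0.16 on the 15211 genes with at least 10 counts in at least 11 mice. Every member called in any comparison was named with values per group, and the 6 with the smallest F test p with lowest, median and highest value. For the correlations, a gene list's score is the mean of its genes' deviations from the group mean, each divided by its SD. Correlations with this score were tested by two-sided permutation within groups (100000 permutations). For the covariate fits, the score is the mean of its genes' deviations from their mean over all mice with vst values. Each was divided by its SD over those mice, and group means were not subtracted. RPKM used GENCODE vM39 exon lengths. The alternatives were edgeR, DESeq2 1.42.0, other scalings and filters, gene list scores as covariates, the mouse number as a block and leaving out each mouse. On simulated data for HOCl against control mice (10501 genes), limma recovered 79% of genes changed 2-fold and 95% of those changed 4-fold, with 3 false calls. The counts were simulated for each gene independently, so these rates do not cover genes that vary together between mice. Some items are not reported here.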

Additional observations from a re-analysis of the deposited data

How the results depend on the processing

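Of the 40 ISGs, the erythroid score as a covariate left 0 called in HOCl against control, E07 against HOCl, D06 against control, BPR21 against control and E07 against D11 mice, 1 in D06 and 3 in BPR21 against HOCl mice, and 4 in the F test. With it the log2 difference changed sign for Isg20 (-0.27) and Ube2l6 (-0.15) in HOCl against control mice, for Isg20 (0.081), Rsad2 (0.10), Usp18 (0.11) and Cmpk2 (0.052) in E07 against HOCl mice, and for Ube2l6 (-0.092) in D06 against control mice. The monocyte score as a covariate left 0 in E07 and in BPR21 against HOCl mice, 0 in BPR21 against control, 2 in E07 against D11 mice and 9 in the F test. Both scores differ between groups, and the shares of all genes called in these fits are not given here.

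On total-count scaling 18 were called in HOCl against control, 23 in E07 against HOCl, 0 in BPR21 against HOCl, 27 in D06 against control, 7 in BPR21 against control and 15 in E07 against D11 mice, and 34 in the F test. The median log2 fold-change was then -0.37 (HOCl against control), 0.34 (E07 against HOCl), -0.40 (D11 against control), -0.54 (D06 against control), -0.40 (BPR21 against control) and 0.31 (E07 against D11), since that scaling moves all genes. Centring on pan-leukocyte genes left 0 in BPR21 against HOCl mice. In 1 fit over 6 groups the calls were 1 (D11 against HOCl), 1 (D06 against HOCl), 3 (BPR21 against HOCl), 4 (BPR21 against control) and 0 (E07 against D11). For D11 against HOCl, edgeR, edgeR with filterByExpr and DESeq2 called 1 each. For D06 against HOCl, filterByExpr called 1 and DESeq2 3. For BPR21, DESeq2 called 6 against HOCl, and edgeR, edgeR without a filter, filterByExpr and DESeq2 called 4 each against control mice. For E07 against D11, edgeR without a filter called 7. The cause was not tested.

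Mice of different groups share a number, and its meaning is not given in the sources used here. Same-numbered pairs had a higher mean correlation than other pairs in each of the 10 comparisons. For E07 against control mice the means were 0.15 and -0.0097, and 7 of 11 pairs were above 0.1. For HOCl against control mice they were 0.048 and -0.0014, and 4 of 10 pairs were above 0.1. No comparison had every same-numbered pair above 0.1, and at most 4 mice correlated best with their own number. A link between same-numbered mice was not tested beyond the block fit. With the mouse number as a block, 1 ISG was called in HOCl against control (Oas3), 1 in D11 against control (Isg15) and 8 in BPR21 against control mice.

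Leaving out 1 mouse gave 4 to 8 calls (HOCl against control), 8 to 12 (E07 against HOCl), 7 to 8 (D06 against control), 14 to 17 (F test), 0 to 1 (D11 and D06 against HOCl), 1 to 3 (BPR21 against HOCl), 0 to 5 (D11 against control), 0 to 9 (BPR21 against control) and 2 to 7 (E07 against D11). In D11 against HOCl mice 1 was called without D11 mouse 3 or 10, and in D06 against HOCl mice 1 without D06 mouse 5. In BPR21 against HOCl mice 3 were called without HOCl mouse 1 or BPR21 mouse 11, and 2 without HOCl mouse 9 or 12 or BPR21 mouse 3. In D11 against control mice 5 were called without control mouse 12. In BPR21 against control mice 9 were called without control mouse 12, 5 without BPR21 mouse 1, 0 without control mouse 1, 2, 6 or 11 or BPR21 mouse 9, and 1 without control mouse 7, 8, 9 or 10 or BPR21 mouse 6, 7, 10, 11 or 12. In E07 against D11 mice 7 were called without D11 mouse 1 or E07 mouse 6, and 2 without D11 mouse 3, 8, 10 or 12 or E07 mouse 4, 8, 9, 10 or 11. Differences of ISGs with few counts are limited by depth.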
